A study of Mus musculus with 11 samples.

Results

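The genes described here were the vascular endothelial growth factor (VEGF) ligands Vegfa, Vegfb, Vegfc and Pgf, the receptors Kdr, Flt1 and Flt4, and the co-receptors Nrp1 and Nrp2. They were chosen by name, as 9 of the 25311 genes measured, and all 9 were detected. Their RNA was followed across 12 retinal cell classes of mouse retinas at postnatal day 10, in single cells captured with inDrop, a droplet method in which each RNA molecule is tagged and counted once by its unique molecular identifier (UMI). The 11 C57BL/6J mice formed 4 groups. Vehicle controls (n = 3) received PBS, and Phase I ROP mice (n = 3) received streptozotocin (STZ), which makes neonates hyperglycemic and models the early vessel-poor phase of retinopathy of prematurity. The other mice also received STZ, and their nursing dams were fed a diet enriched in ω-3 (n = 2) or ω-6 (n = 3) long-chain polyunsaturated fatty acids. Controls and Phase I ROP mice were littermates. The mice of the diets were littermates too, kept in a separate cage for each diet, so that diet and cage cannot be told apart. No group received a diet without STZ, so the diets were compared within Phase I ROP only. The descriptions of the diet samples carry the word JAX, which those of the other samples lack. What it marks was not stated, and no test was made between the diet mice and the others.

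VEGF-A is the main growth signal for developing vessels. It binds the receptor tyrosine kinase VEGFR2, encoded by Kdr, which carries most of its signal, and with higher affinity VEGFR1, encoded by Flt1, which signals weakly and acts largely as a decoy. VEGF-B and placental growth factor (Pgf) bind VEGFR1, VEGF-C binds VEGFR3 (Flt4) and, once processed, VEGFR2, and the neuropilins Nrp1 and Nrp2 are co-receptors shared with the class 3 semaphorins that guide axons. In the developing retina, astrocytes and Müller glia are known sources of VEGF-A, and neurons and glia as well as endothelial cells carry VEGFR2.

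The genes lie on 7 chromosomes of the GRCm38 build. Vegfa spans chr17:46016993-46032369 on the minus strand, Vegfb chr19:6982473-6987651 on the minus strand, Vegfc chr8:54077606-54187096 on the plus strand and Pgf chr12:85166635-85177790 on the minus strand. The receptor genes Kdr, at chr5:75932827-75978458, and Flt1, at chr5:147561604-147726011, share a chromosome and the minus strand, and Flt4 lies at chr11:49609263-49652739 on the plus strand. Nrp1 lies at chr8:128358604-128503363 and Nrp2 at chr1:62703285-62818695, both on the plus strand. Below are the promoters of the genes that the comparisons turn on, Vegfa, Kdr and Nrp2, and of Flt1, the receptor that Kdr is set against. They are from RefSeq on GRCm38.p6, 5′ to 3′ on the strand of the gene, and run up to 250 bases before its start, with exon bases of another transcript left out for Kdr (3 bases) and Nrp2 (32 bases). Capitals mark the GC box GGGCGG on either strand and, in Flt1, the cyclic AMP response element TGACGTCA.
Vegfa, chr17:46032378-46032627: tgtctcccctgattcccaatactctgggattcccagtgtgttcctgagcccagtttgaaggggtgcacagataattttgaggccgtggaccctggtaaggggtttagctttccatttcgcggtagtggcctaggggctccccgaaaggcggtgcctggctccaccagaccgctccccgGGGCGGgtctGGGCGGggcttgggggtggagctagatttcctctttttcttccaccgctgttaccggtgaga
Kdr, chr5:75978459-75978705: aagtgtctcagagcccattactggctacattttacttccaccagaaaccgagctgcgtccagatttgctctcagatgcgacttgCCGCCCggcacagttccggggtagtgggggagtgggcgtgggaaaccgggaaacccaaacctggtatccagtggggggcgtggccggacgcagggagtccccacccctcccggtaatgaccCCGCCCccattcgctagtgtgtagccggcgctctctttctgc
Flt1, chr5:147726012-147726261: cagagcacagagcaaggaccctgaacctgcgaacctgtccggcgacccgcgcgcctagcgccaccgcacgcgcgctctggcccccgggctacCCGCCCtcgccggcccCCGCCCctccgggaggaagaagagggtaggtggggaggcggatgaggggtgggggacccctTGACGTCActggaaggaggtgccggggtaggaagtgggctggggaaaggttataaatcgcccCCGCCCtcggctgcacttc
Nrp2, chr1:62703067-62703284: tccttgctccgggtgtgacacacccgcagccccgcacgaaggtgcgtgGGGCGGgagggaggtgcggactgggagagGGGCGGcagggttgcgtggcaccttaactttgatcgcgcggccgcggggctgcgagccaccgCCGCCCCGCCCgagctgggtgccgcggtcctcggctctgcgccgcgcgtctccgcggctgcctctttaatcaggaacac
The window was searched for 5 motifs on both strands. GGGCGG, to which SP1 binds, was found in all 9 promoters, from 1 match in Nrp1 to 5 in Nrp2, and in 32.7% of 32851 mouse promoters of the same length. For Pgf and Flt4, all 250 bases of the window lay in exon bases of another transcript. In Nrp2 a pair of the matches overlapped, and the fifth lay in the exon bases that are not shown. TGACGTCA was found once, in Flt1, and in 1.55% of all promoters. The hypoxia response core ACGTG, the AP-1 site TGACTCA and the Egr site GCGTGGGCG were in none of the 9 windows, against 16.6%, 4.46% and 0.536% of all promoters. A match of letters is a description only, and sites outside these windows, among them those further upstream, were not searched.

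After cells with at most 300 genes were left out, 20033 cells remained, with 2563064 to 6516478 UMIs per mouse and a median of 1003.5 to 2341 UMIs per cell. They were assigned to classes by clustering in which none of the 9 genes took part. There were 10054 rods, 3613 bipolar cells, 3402 amacrine cells, 1423 Müller glia, 1125 cones, 96 retinal ganglion cells, 87 endothelial cells, 72 pigment epithelial cells, 58 microglia, 47 astrocytes, 31 horizontal cells and 25 pericytes. The endothelial cluster was led by Cldn5, Col4a1, Adgrl4, Cd93, Igfbp7 and Cdh5, and the Müller cluster by Crym, Col9a1, Rlbp1 and Slc1a3. The 3 control libraries stood apart from the 8 STZ libraries. Fosb, an immediate early gene, was at 0.390 to 0.890 CPM (its UMIs scaled to a fixed total of all UMIs of a library) in the controls and at 116 to 231 CPM in the others, and Rn7sk, an RNA without a poly(A) tail, was at 193 to 290.2 against 1.15 to 16.2 CPM. Treatment and library preparation therefore cannot be told apart in any difference between Phase I ROP and control. In addition, 1157 cell barcodes occurred in more than 1 library (2352 cells).

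Levels are given as CPM of all UMIs of a class in a mouse. Because UMIs are counted at the 3′ end of a transcript, a level does not scale with transcript length, and levels of different genes are compared on this scale. Kdr was the most abundant of the 9 genes with 9654 UMIs, followed by Vegfa (2705), Vegfb (1906), Flt1 (1220), Nrp2 (961), Nrp1 (571), Vegfc (254), Flt4 (78) and Pgf (28).

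**Figure D1:**
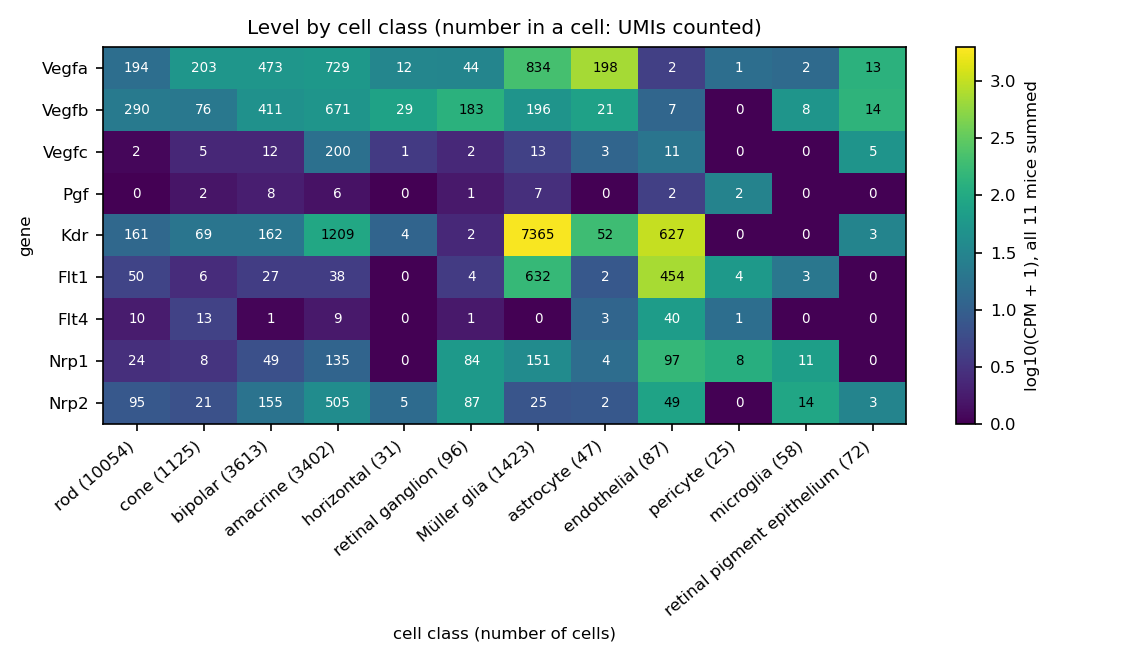
Heat map of the level of each of the 9 genes (rows) in each of the 12 cell classes (columns), as log10(CPM + 1) of the counts pooled over 11 mice, with the number of UMIs written in each cell. Kdr stood out in Müller glia (7365 UMIs) and endothelial cells (627 UMIs), Vegfa in astrocytes and Müller glia, and Flt4 and Pgf were near 0 outside few classes.

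Vegfa RNA came from glia and neurons and was nearly absent from endothelial cells. Müller glia held 834 UMIs, 30.8% of all, at a mean of 222 ± 69.0 CPM (SD, n = 11 mice), and every mouse had more in Müller glia than in amacrine cells (mean 55.6 CPM). Amacrine, bipolar (53.6 CPM) and cone cells (51.8 CPM) had like levels. Amacrine exceeded bipolar cells in 6 of 11 mice and bipolar exceeded cone cells in 7 of 11, so that their order was within the spread of mice. Rods followed at 16 CPM, below cones in 9 of 11 mice. The highest pooled level was in astrocytes, the cells that lay down the template for superficial vessels, at 709 CPM and with a UMI in 31 of 47 cells, but each mouse gave at most 10 astrocytes and their level per mouse ran from 0 to 1791 CPM. A Vegfa UMI was found in 25.1% of Müller glia (median 2085 UMIs per cell) and in 1.59% of rods (median 1061.5 UMIs per cell). With cells thinned to 500 UMIs, 8.0% of Müller glia still had one, against 0.681% of rods. How much free RNA added to these shares was not tested. Endothelial cells had 2 UMIs in 87 cells, 2.30% of cells (95% Wilson interval 0.633 to 8.0%).

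The other ligands were lower. Vegfb was spread over amacrine cells (50.4 CPM), Müller glia (47.5 CPM) and bipolar cells (45.9 CPM), in an order that changed between mice, since amacrine cells were above Müller glia in 5 of 11 mice. Rods had less, at 20.1 CPM, and were below bipolar cells in 11 of 11 mice. Retinal ganglion cells, which send the axons of the optic nerve, had Vegfb at 127 CPM pooled and a UMI in 64 of 96 cells, at a median of 13618.5 UMIs per cell, the deepest class. Vegfc was the most restricted ligand. Amacrine cells held 200 of its 254 UMIs (78.7%), at 15 CPM against 3.47 CPM in Müller glia, with the higher level in amacrine cells in 11 of 11 mice. Endothelial cells had 11 Vegfc UMIs in 8 of 87 cells. Pgf was near the limit of detection, with 8 UMIs in bipolar cells, 7 in Müller glia and 6 in amacrine cells, and no level was read from it.

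Most captured UMIs of Kdr, the gene of VEGFR2, were in Müller glia, of which 1423 cells were recovered against 87 endothelial cells. Müller glia held 76.3% of the Kdr UMIs, a share that depends on the cells recovered. Their mean was 1864 ± 509 CPM, and 1081 of 1423 Müller glia (76.0%) had at least 1 UMI. Endothelial cells were at 1025 CPM pooled, with a UMI in 72 of 87 cells (82.8%) at a median of 5165 UMIs per cell. After thinning to 500 UMIs, the shares were 49.3% in Müller glia and 37.2% in endothelial cells. Amacrine cells came next, at 91.4 CPM, below Müller glia and above bipolar cells (17.7 CPM) in 11 of 11 mice. Bipolar cells, rods (12.4 CPM) and cones (12.3 CPM) were not separated, as each exceeded the next in 7 of 11 mice. The thinned share was 3.95% in amacrine cells against 0.524% in rods. Kdr had 0 UMIs in 58 microglia and in 25 pericytes, at medians of 1761 and 2676 UMIs per cell. At that depth a count of 0 allows up to 6.21% and 13.3% of such cells with a UMI (95% Wilson upper limits), and it sets no limit on cells that express the gene. Astrocytes had 52 Kdr UMIs in 10 of 47 cells, of which 16 were in 1 cell of ω-3 replicate 2.

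Flt1 was divided between the same classes in another proportion. Müller glia held 632 of its UMIs (51.8%) at a mean of 169.8 ± 43.9 CPM, and endothelial cells held 454 (37.2%) at 742 CPM pooled. A UMI was seen in 69 of 87 endothelial cells and in 302 Müller glia (21.2%, or 5.98% after thinning), against 40 rods (0.398%). For each Flt1 UMI there were 11.7 Kdr UMIs in Müller glia, from 5.75 to 20.1 by mouse, and 1.38 in endothelial cells, from 0.725 to 2.39 by mouse. The ranges did not overlap. In amacrine cells the ratio was 31.8, from 9.67 to 100 by mouse, on 38 Flt1 UMIs. Both receptors were seen in 62 of 87 endothelial cells and neither in 8, while 278 of 1423 Müller glia had both and 318 had neither.

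Flt4, the VEGF-C receptor found on lymphatic vessels and on sprouting retinal vessels, had 40 of its 78 UMIs (51.3%) in endothelial cells, in 26 of 87 cells. Cones had 13 Flt4 UMIs, rods 10, amacrine cells 9 and Müller glia 0 in 1423 cells, which allows up to 0.269% of cells with a UMI (95% Wilson upper limit). The neuropilins differed from the receptor tyrosine kinases in their distribution. Nrp1 had 151 UMIs in Müller glia (37.0 CPM, above amacrine cells at 10.2 CPM in 11 of 11 mice), 135 in amacrine cells, 97 in endothelial cells (159 CPM pooled) and 84 in retinal ganglion cells, where 42 of 96 cells had a UMI. Amacrine cells were above bipolar cells (5.75 CPM) in 8 of 11 mice. Among bipolar cells, Nrp1 was at 17.3 CPM in the cluster led by Grik1, a receptor of OFF bipolar cells, and at 1.75 CPM in the cluster led by Pcp2, which marks rod and other ON bipolar cells. Amacrine cells held most captured Nrp2 UMIs, with 505 of 961 (52.5%) at 37.7 CPM, above bipolar cells (18.4 CPM) in 10 of 11 mice, and bipolar cells were above rods (9.13 CPM) in 8 of 11. Retinal ganglion cells had 87 Nrp2 UMIs and endothelial cells 49 (80.1 CPM pooled).

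The 5 amacrine clusters differed in these genes. Kdr was at 271 CPM in the cluster led by Dync1i1, 244 CPM in the cluster led by Pou3f3 and 192 CPM in the cluster led by Rims1, which had Chat, a marker of cholinergic starburst cells, among its leading genes. It was at 105.5 CPM in the cluster led by Prdm13 and Ebf3 and 29.0 CPM in the cluster led by Cartpt. Nrp2 followed another order. It was at 152 CPM in the Pou3f3 cluster and 79.9 CPM in the Prdm13 cluster, but at 8.74 CPM in the Rims1 cluster. Vegfc was highest in the Dync1i1 cluster in each of the 4 groups, at 52.1 to 84.2 CPM, and was at 0 in the Rims1 cluster.

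The next question was whether Phase I ROP changed these genes in each class. UMIs were summed per mouse and class and tested with edgeR, with p-values adjusted over all genes tested by the Benjamini-Hochberg method and a threshold of 0.05. Genes too low to pass the filter on counts were not tested, so that 5 of the 9 genes were tested in amacrine cells, 4 in Müller glia, 3 in bipolar cells, 1 in rods and 0 in cones. The filter can be met by the mice of 1 group alone, and Nrp2 in rods, lower in every Phase I ROP mouse, was not tested. For Nrp2 in bipolar and amacrine cells, and for Vegfc in amacrine cells, the controls alone did not meet the filter. A shared direction of the calls is therefore not read as a result about the 9 genes. A higher level was called for Kdr, Nrp2 and Vegfa in amacrine cells, for Vegfa and Nrp2 in bipolar cells and for Kdr in Müller glia. None of those tested was called lower in any class. These counts stand against a broad difference between the groups. Among all genes tested, 39% were called in amacrine cells (18.2% higher), 45.4% in bipolar cells (21.5% higher), 10.7% in Müller glia (5.81% higher) and 41.5% in rods (20.5% higher). Fold changes from the fit are relative to the bulk of genes in a class. On mean CPM without that scaling, the median gene was higher in Phase I ROP by 0.34 on the log2 scale in amacrine cells, 0.39 in bipolar cells, 0.27 in rods and 0.16 in Müller glia, so ratios of the CPM values below exceed the fitted changes by about as much. The share of all genes whose groups did not overlap is not given here. A lack of overlap below therefore describes the mice only and adds nothing to the test.

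Amacrine cells showed 3 of these differences among 5 members tested, against 2 of 3 in bipolar cells and 1 of 4 in Müller glia. Kdr was at 140.2, 130.7 and 98.8 CPM in the 3 Phase I ROP mice and at 39.4, 27.7 and 41.8 CPM in the 3 controls. Every Phase I ROP mouse was above every control, and the level rose by 1.42 on the log2 scale (SE 0.22, adjusted p = 0.000229). Nrp2 was at 51.7, 31.0 and 69.2 CPM against 15.7, 16.2 and 6.78 CPM, again without overlap, with a log2 fold change of 1.60 (SE 0.37, adjusted p = 0.00364). Vegfa was at 90.7, 65.4 and 75.1 CPM against 36.4, 17.2 and 23.7 CPM, and its log2 fold change was 1.23 (SE 0.27, adjusted p = 0.00265). The Vegfa groups did not overlap either. Vegfc was at 27.4, 19.5 and 10.9 CPM against 2.95, 8.59 and 7.91 CPM, which did not overlap but missed the threshold (log2 fold change 1.21, SE 0.48, adjusted p = 0.0596). Vegfb was at 33.7, 47.0 and 63.2 CPM against 37.4, 64.9 and 28.2 CPM. Its groups overlapped and its log2 fold change was -0.22 (adjusted p = 0.593), or 0.14 on unscaled CPM.

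RNA of other cells moved with the groups in amacrine cells. The summed level of 12 Müller glia markers there was 531 to 684 CPM in Phase I ROP and 451 to 487 CPM in control, while Müller glia themselves were at 23542 to 27723 and 22689 to 25856 CPM. The 12 endothelial markers ran the other way in amacrine cells, at 128 to 193 CPM in Phase I ROP and 184 to 231 CPM in control. Limited to amacrine cells with at most 1 UMI of the Müller markers, the log2 fold change was 1.2 for Kdr (adjusted p = 0.00107), 1.84 for Nrp2 (adjusted p = 0.00582) and 0.90 for Vegfa (adjusted p = 0.0470). A limit on marker UMIs does not remove free RNA of the 3 genes themselves. The part of RNA of other cells in these differences was not tested.

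**Figure D2:**
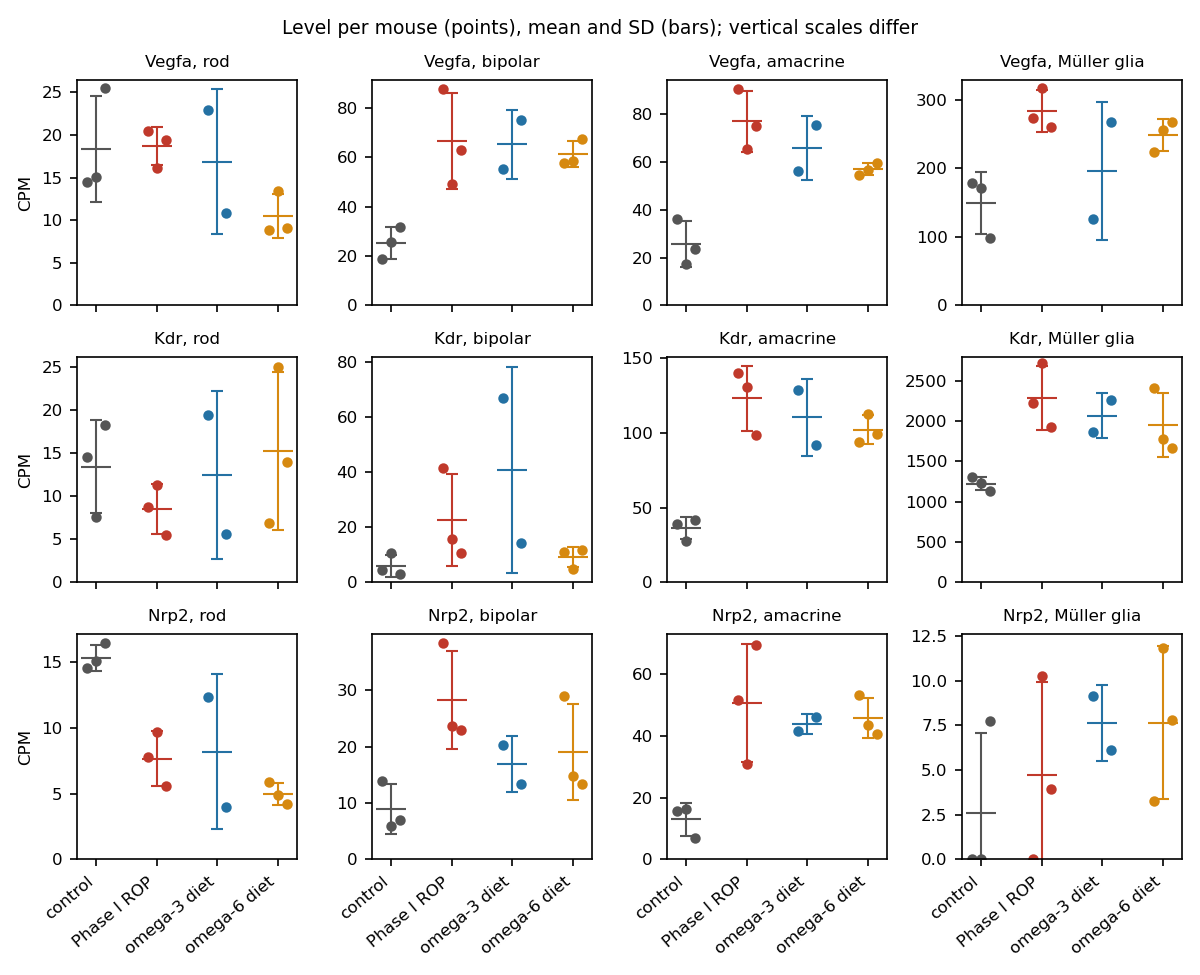
Level in CPM of Vegfa, Kdr and Nrp2 (rows) in rods, bipolar cells, amacrine cells and Müller glia (columns), with a point for each mouse by group and bars for the mean and SD, cut at 0. Scales differ between panels. In amacrine cells the 3 Phase I ROP mice lay above the 3 controls for each of the 3 genes.

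The amacrine clusters were then described one by one. The cluster led by Prdm13 was 42.7% of amacrine cells in control and 40.6% in Phase I ROP, and the cluster led by Cartpt 41.5% and 40.4%. The smaller clusters took 7.68% and 10% (Dync1i1, the cluster highest in Kdr), 4.31% and 5.01% (Pou3f3) and 3.77% and 3.99% (Rims1). In the Prdm13 cluster Kdr was at 181.5, 173 and 98.1 CPM in Phase I ROP and at 29.9, 11.1 and 51.2 CPM in control, and in the Cartpt cluster it was at 58.5, 22.9 and 45.8 against 12.8, 6.16 and 4.62 CPM. Neither cluster showed overlap between the groups. Tested alone, the Prdm13 cluster gave a log2 fold change of 2.00 for Kdr (adjusted p = 0.00171) and 2.00 for Nrp2 (adjusted p = 0.00457), and the Cartpt cluster 2.07 for Kdr (adjusted p = 0.00725). Vegfa was called in the Cartpt cluster (1.35, adjusted p = 0.00633) and not in the Prdm13 cluster (1.2, adjusted p = 0.132). Kdr did not overlap in the Dync1i1 cluster, at 267, 384 and 279.9 CPM against 171, 118 and 188 CPM, nor in the Pou3f3 cluster, at 316, 427 and 248 against 83.2, 44.4 and 29.8 CPM. Nrp2 and Vegfa overlapped in the Pou3f3 cluster, where a mouse of either group had at most 3 Vegfa and 9 Nrp2 UMIs. In the Rims1 cluster Kdr was at 124, 269 and 167 CPM against 142, 68.3 and 98.3 CPM, where the groups overlapped, and Nrp2 had 2 UMIs in each group.

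**Figure D3:**
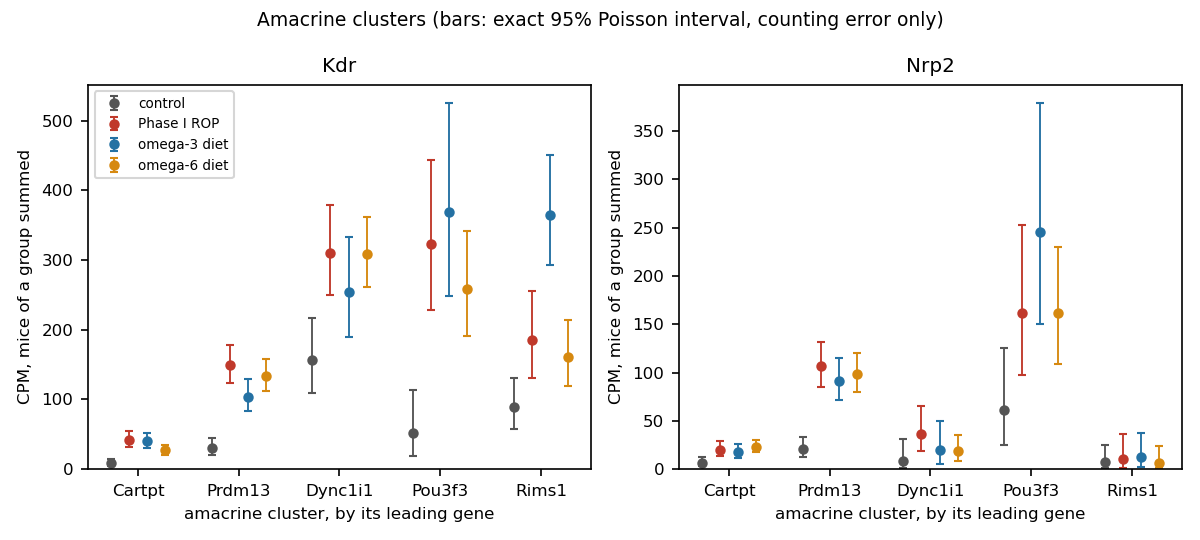
Pooled level of Kdr and Nrp2 in CPM in the 5 amacrine clusters, named by their leading gene, for the 4 groups, with exact 95% Poisson intervals that cover counting error only. Kdr in control was below Phase I ROP in every cluster, from 8.17 against 41.9 CPM in the Cartpt cluster to 156 against 310 CPM in the Dync1i1 cluster, and Nrp2 ran from 6.59 to 12.8 CPM over the groups in the Rims1 cluster.

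In Müller glia, Kdr was at 2225, 2713 and 1924 CPM in Phase I ROP and at 1307, 1229 and 1138 CPM in control. The groups did not overlap, and Kdr rose by 0.78 on the log2 scale (SE 0.18, adjusted p = 0.0116). This call rested on few mice, since it was lost without Phase I ROP replicate 2 (log2 fold change 0.68, adjusted p = 0.0551), without control replicate 1 (0.78, adjusted p = 0.0547) and without control replicate 3 (0.70, adjusted p = 0.0623). Vegfa in Müller glia was at 273, 318 and 261 CPM against 178, 172 and 98.2 CPM. It did not overlap and lay at the threshold, with a log2 fold change of 0.83 (SE 0.25, adjusted p = 0.0507). Flt1 was at 163, 241 and 174 CPM against 116, 214 and 153 CPM. Its groups overlapped (log2 fold change 0.14, adjusted p = 0.762), as did those of Vegfb (0.11), at 37.7, 61.5 and 51.4 against 42.6, 41.5 and 41.4 CPM. Endothelial markers in Müller glia were at 179 to 679 CPM in Phase I ROP and 248 to 279 CPM in control, and their part in the Kdr difference was not tested.

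In bipolar cells, Vegfa was at 87.8, 49.1 and 62.8 CPM in Phase I ROP and at 18.6, 25.7 and 31.7 CPM in control. The groups did not overlap, and the log2 fold change was 0.98 (SE 0.31, adjusted p = 0.0198), lost without Phase I ROP replicate 1 (0.70, adjusted p = 0.120) or control replicate 1 (0.78, adjusted p = 0.0757). Nrp2 was at 38.3, 23.6 and 23 CPM against 14, 5.85 and 6.94 CPM, also without overlap. Its log2 fold change was 1.26 (SE 0.44, adjusted p = 0.0287), and it was lost without any of 4 mice, with log2 fold changes of 0.94 without Phase I ROP replicate 1, 1.42 without replicate 3, 1.03 without control replicate 2 and 1.08 without control replicate 3. Nrp2 had 24, 12 and 15 UMIs in Phase I ROP against 12, 5 and 7 in control. It met the count filter only with the Phase I ROP mice, so the direction of this call is not read as a result. Vegfb was at 38.3, 53.1 and 49.0 CPM against 37.2, 30.4 and 32.7 CPM. Those values did not overlap, with a log2 ratio of 0.48 on unscaled CPM and 0.064 in the fit. Kdr (41.5, 15.7 and 10.7 against 4.65, 10.5 and 2.97 CPM) and Nrp1 (11.2, 7.9 and 7.7 against 1.2, 1.2 and 1.0 CPM) were also higher in every Phase I ROP mouse, but on 16 and 3 UMIs in the controls, and were below the filter for a test. Müller markers in bipolar cells were at 291 to 362 CPM in Phase I ROP and 175 to 269 CPM in control. With at most 1 UMI of these markers per cell, the changes were 1.00 for Vegfa (adjusted p = 0.0399) and 1.18 for Nrp2 (adjusted p = 0.0392). The part of Müller RNA in these changes was not tested.

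In rods, the 1 member tested was not called. Vegfa was at 20.4, 16.2 and 19.4 CPM in Phase I ROP and at 14.5, 15.1 and 25.6 CPM in control, and the groups overlapped (log2 fold change -0.33, SE 0.43, adjusted p = 0.555, or 0.021 on unscaled CPM). Nrp2 was at 7.78, 9.69 and 5.55 CPM against 14.5, 15.1 and 16.4 CPM, lower in every Phase I ROP mouse, on 20 and 18 UMIs, and was below the filter for a test within rods. Kdr in rods was at 8.75, 11.3 and 5.55 against 14.5, 7.55 and 18.3 CPM, with overlap. In cones, Vegfa was at 59.4, 113 and 87.0 CPM against 0, 54.3 and 21.4 CPM, but the 73 control cones held only 4 of its UMIs, and no member could be tested there.

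The changes were then compared between pairs of classes with an interaction term, in 39 tests of the members. In 11 of these the member had passed the count filter within both classes, and 1 of the 11 was called. It was the Vegfa change in rods minus that in amacrine cells, at -1.65 on the log2 scale (adjusted p = 0.0416), in a pair of classes where 10.3% of all genes were called. The call held without control replicate 1 and was lost without any other of the 6 mice, with differences of -1.61 to -1.22 and an adjusted p of 0.0603 to 0.304. Another 4 tests passed the threshold, but they set Kdr or Nrp2 in rods, where neither gene passed the filter, against classes with more UMIs, so they are given as values only. The change in rods minus that in amacrine cells was -2.53 for Kdr and -3.14 for Nrp2, that of Kdr in rods minus Müller glia was -1.77 (4.97% of all genes called) and that of Nrp2 in rods minus bipolar cells was -2.71 (5.96% called). The Kdr changes in amacrine cells and Müller glia differed by 0.79 (adjusted p = 0.0604) and the Vegfa changes in bipolar and amacrine cells by -0.40 (adjusted p = 0.775), which did not pass. Rod markers over all cells were at 10137 to 13989 CPM in Phase I ROP and 1547 to 3329 CPM in control, so that rod transcripts made up more of the RNA of the Phase I ROP libraries, and their part in these differences was not tested.

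Over all cells of a mouse together, 2 of 7 tested members were called, both higher, against 48.1% of all genes called and 24.7% called higher. Vegfa was at 87.7, 71.8 and 71.4 CPM in Phase I ROP and at 46.8, 31.2 and 35.9 CPM in control (log2 fold change 0.76, SE 0.18, adjusted p = 0.00457), without overlap. Nrp2 was at 26.6, 22.2 and 29.8 CPM against 17.3, 12.9 and 13.4 CPM (0.60, SE 0.22, adjusted p = 0.0381), also without overlap, but the call was lost with DESeq2 (adjusted p = 0.0994) and without Phase I ROP replicate 1 or 3 or control replicate 2 or 3 (0.51 to 0.56, adjusted p = 0.0833 to 0.136). Kdr, at 271, 280 and 183 against 153, 104 and 169 CPM, did not overlap but missed the threshold (0.51, SE 0.20, adjusted p = 0.0545). In such totals, fewer cells of a type and less RNA per cell cannot be told apart. Over the 4 classes with a test and all cells, 8 of the 20 tests that the count filter allowed were called, all 8 higher. Of all genes, 10.7% (Müller glia) to 48.1% (all cells) were called in these tests. An unadjusted p under 0.05 was found in 11 of the 20, against 1321 of 4867 genes in Müller glia and 8839 of 15964 over all cells. The sums over all cells hold the cells of the classes, and neither the count nor the direction is read as a result about the members.

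Endothelial cells were too few for a test of expression, with 20 in Phase I ROP (6, 8 and 6 by mouse) and 34 in control (7, 5 and 22). Pooled over mice, Kdr was at 1151 CPM in Phase I ROP (exact 95% Poisson interval 945 to 1388) and at 622 CPM (520 to 739) in control. By mouse it was at 582, 1301 and 1626 CPM against 649, 606 and 617 CPM, so that 1 Phase I ROP mouse lay below all controls. Flt1 was at 1172 CPM (964 to 1412) against 507 CPM (414 to 613) pooled, and by mouse at 753, 1413 and 1244 against 895, 255 and 434 CPM, with overlap. Nrp1 was at 180 against 72.4 CPM, Nrp2 at 106 against 72.4 CPM and Flt4 at 84.5 against 24.1 CPM, the last on 8 and 5 UMIs. These intervals cover counting error only and treat the cells of a group as 1 sample. The 12 endothelial markers summed to 10033 to 14730 CPM in Phase I ROP and 7944 to 9570 CPM in control within the class, and the 12 Müller markers to 2328 to 3207 against 925 to 1813 CPM. Their part in the higher pooled receptor levels was not tested.

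**Figure D4:**
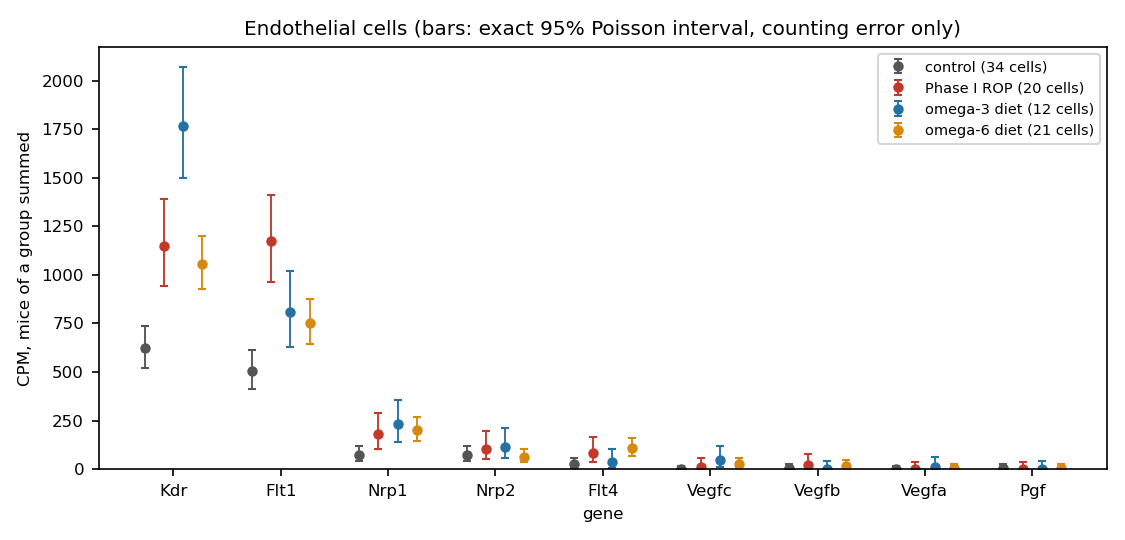
Pooled level in CPM of the 9 genes in endothelial cells by group (34 control, 20 Phase I ROP, 12 ω-3 and 21 ω-6 cells), with exact 95% Poisson bars that cover counting error only. Kdr and Flt1 stood above the other 7 genes in each group, and in control Kdr was at 622 CPM and Flt1 at 507 CPM, against 1151 and 1172 CPM in Phase I ROP.

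The share of endothelial cells among all cells was 0.375 ± 0.172% (SD, n = 3) in Phase I ROP and 0.955 ± 0.453% (n = 3) in control, a difference of -0.580 percentage points. It was -0.321 without control replicate 3, which had the highest share (1.47%), and -2.27 with classes by marker score. With the mice permuted exactly between the groups, the two-sided p was 0.1, the smallest value that 3 against 3 mice allow. Recovery of cells from dissociated tissue and the number of cells in the retina cannot be told apart in such a share.

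No member was called between the diets, in 29 tests over the 5 classes and all cells, of which 3 had an unadjusted p under 0.05. Among all genes, edgeR called 0.0158% in rods (2 of 12637) and 0% in the other classes and in all cells together. At an unadjusted p under 0.05 there were 281 genes in Müller glia, 505 in bipolar cells, 721 in cones, 1328 over all cells, 1362 in amacrine cells and 1393 in rods, and DESeq2 called 2 to 45 genes by class. Kdr gave the 3 lowest p-values of the members. In bipolar cells it was at 67.0 and 14.3 CPM on the ω-3 diet and at 11, 4.94 and 11.8 CPM on the ω-6 diet, with a log2 fold change (ω-6 minus ω-3) of -2.13 (SE 0.61, adjusted p = 0.991). That difference was carried by ω-3 replicate 1, with 69 UMIs against 16 in replicate 2, and the log2 fold change was -0.61 without it. In cones Kdr was at 15.6 and 5.24 CPM against 24.5, 25.4 and 42.9 CPM, which did not overlap (1.56, SE 0.54, adjusted p = 0.591). Over all cells it was at 311 and 216 against 183, 195 and 192 CPM (-0.39, SE 0.16, adjusted p = 0.682). The Kdr change between the diets differed between cones and bipolar cells by 3.65 (adjusted p = 0.0285), the only one called of 56 such tests, in a pair of classes where 0.0263% of all genes were called. The same ω-3 mouse was in the bipolar value, and the call was lost without any 1 of the 5 mice (3.14 to 3.98, adjusted p = 0.0634 to 1.00).

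In Müller glia and amacrine cells, the diets gave close means of Kdr. Müller glia had it at 1867 and 2261 CPM on the ω-3 diet and at 2406, 1773 and 1664 CPM on the ω-6 diet (log2 fold change -0.027, SE 0.18). Amacrine cells had it at 128.5 and 92.2 against 94.0, 112.8 and 99.5 CPM (-0.022, SE 0.19). Both ranges overlapped. Vegfa in Müller glia was at 126 and 267 CPM against 224, 256 and 268 CPM (0.42, SE 0.30), where the 2 mice on the ω-3 diet lay farther apart than the groups. Vegfc in amacrine cells, at 6.69 and 18.7 against 24.1, 21.1 and 17.5 CPM, had a log2 fold change of 0.78 (SE 0.40, adjusted p = 0.522). With groups of 2 and 3 mice these values do not show that the diets act alike. Endothelial Kdr was at 1767 CPM (1498 to 2070) pooled on the ω-3 diet, from 12 cells, and at 1057 CPM (927 to 1201) on the ω-6 diet, from 21 cells, of which 17 were from 1 mouse. By mouse it was at 1484 and 1910 against 2271, 953 and 1190 CPM, so the groups overlapped. The endothelial share was 0.243 ± 0.0118% on the ω-3 diet (n = 2) and 0.336 ± 0.389% on the ω-6 diet (n = 3), with p = 1 in the exact permutation test, whose smallest possible value, with the smaller tail doubled, was 0.2.

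The surrounding pathway was described with 4 lists, each by its counts and its median beside the median of all genes tested. Since the count filter can be met by the Phase I ROP mice alone, a shared direction within a list is not read as a result. Of all genes, 18.2% were called higher in amacrine cells, 21.5% in bipolar cells, 20.5% in rods and 5.81% in Müller glia. Of 51 VEGF signal transducers, which carry the signal from the receptors inward, 40 were tested in amacrine cells, where 14 rose and 3 fell in Phase I ROP, with a median log2 fold change of 0.37 against 0.019 for all genes. In bipolar cells 16 rose and 3 fell of 36 (median 0.57 against 0.029), in rods 11 and 4 of 26 (0.55 against 0.027), in cones 3 and 0 of 13 (0.76 against 0.11, where 19.3% of all genes were called and 11.2% higher) and in Müller glia 1 and 0 of 28 (0.40 against 0.0029). Among those that rose in amacrine cells were the stress kinase gene Mapk14 (1.22), its target Mapkapk2 (1.19) and the membrane kinase gene Src (1.06), while Yes1 (-1.14), of the Src family, the small GTPase gene Cdc42 (-0.71) and Hras (-0.59) fell. Mapkapk2 also rose in bipolar cells (2.91) and rods (1.51), and Ptk2, encoding focal adhesion kinase, fell in both (-1.54 and -1.51). Pik3r3, a regulatory subunit of PI3 kinase, rose in Müller glia (1.27) and fell in rods (-1.69).

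Among genes of oxygen sensing and of Vegfa transcription, a list of 15, all calls were higher. That direction is not read as a result, since some of these genes met the filter only with the Phase I ROP mice. In bipolar cells Ppargc1a was at 3.57 CPM in control and 16.1 CPM in Phase I ROP, Egln2 at 6.57 and 21.3 CPM and Hif1an at 7.19 and 21.7 CPM. In amacrine cells 9 rose of 12 tested (median 0.88), in bipolar cells 7 of 12 (0.77), in rods 5 of 9 (1.04), in cones 2 of 4 (1.89) and in Müller glia 1 of 6 (0.59), and none fell. Of all genes, 18.2%, 21.5%, 20.5%, 11.2% and 5.81% were called higher in these classes, in the same order. The medians of all genes ran from 0.0029 in Müller glia to 0.11 in cones. Sp1, which encodes a transcription factor known for binding GC boxes, rose in amacrine cells (1.5) and rods (1.74). Stat3, a cytokine-activated transcription factor, rose in Müller glia from 60.8 to 347 CPM (2.55) and in cones (2.29). Epas1, which encodes HIF-2α, rose in rods (2.19) and Hif1a in cones (1.31). The list also holds genes that restrain hypoxia signalling, and of these Hif1an rose in amacrine (1.21) and bipolar cells (1.53), Vhl in amacrine cells (1.10), Egln1 in rods (1.62) and Egln2 in bipolar cells (1.57). Ppargc1a, a coactivator of mitochondrial genes, rose in bipolar cells (2.11).

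A list of 14 genes covered partners of the neuropilins, namely semaphorins, plexins, L1cam and Gipc1. In amacrine cells Plxna1 (0.84), L1cam (0.74) and Plxna2 (0.51) rose and Plxna4 (-0.43) fell, of 7 tested. The median of the 7 was 0.55 against 0.019 for all genes, of which 39% were called. Over all cells Sema3f, a ligand of Nrp2, rose from 7.77 to 21.1 CPM (1.43), and Plxnd1, the semaphorin receptor of endothelial cells, fell from 8.99 to 3.25 CPM (-1.47). Of all genes tested over all cells, 48.1% were called and the median was 0.0010. Of 20 endothelial tip and stalk genes outside the family, 12 were abundant enough over all cells, with a median of 0.075. Among these 4 rose, including the Notch ligand gene Jag1 (1.86), Notch1 (0.80) and Hey2 (0.72), and Cd34 fell (-0.99). Those changes need not be endothelial, and for Cd34 too, fewer endothelial cells and less RNA per cell cannot be told apart. In rods, Hey2 was at 32.2 CPM in Phase I ROP and 0.722 CPM in control (4.74), Jag1 rose by 2.62, and Hey1 rose in amacrine (1.02) and bipolar cells (1.11). Between the diets no gene of the 4 lists was called, in any class.

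The genes whose levels ran most like each member over the 29 sums of a class and group were described by Pearson's r, with no test, since the sums share libraries and depth. They were Ddr1, Tspan3 and Six3os1 for Vegfa (0.92, 0.90 and 0.89), Basp1, Ccdc88a and Rab10 for Vegfb (0.91, 0.90 and 0.88) and Npr3, Lhfpl2 and Man1a for Vegfc (0.90, 0.88 and 0.85). For the receptors they were Ajuba, Mmp19 and Trip6 for Kdr (0.95, 0.93 and 0.93) and Fam129a, Itm2a and Sept10 for Flt1 (0.98, 0.97 and 0.97). For the co-receptors they were Lrrc8c, Slc1a4 and Tgfb1i1 for Nrp1 (0.95, 0.91 and 0.90) and Chst1, Tspan2 and Shank3 for Nrp2 (0.90, 0.88 and 0.88). Flt4 and Pgf had too few UMIs for this measure.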

How the data were processed

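Retinas of 11 mice in 4 groups were dissociated with papain and measured by inDrop. The authors ran the umis tool of bcbio-nextgen, dropped barcodes under 500 reads, mapped reads with Rapmap to GRCm38 transcripts (GENCODE M23), and deposited raw whole UMI counts for each gene in each cell. Replicates are mice as labelled. The 9 genes, the gene lists and the tests were chosen with earlier results of these data known.

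Cells with more than 300 genes were clustered with Seurat 5.3.0 (2000 variable genes without the members, 75 principal components, resolution 0.2), and clusters were named from canonical markers, 6 of 10 rod clusters (2419 cells) by marker shares alone. Calling each cell by a marker score gave the same class for 74.3% of cells. Scrublet in scanpy 1.11.5 marked 0.359% of cells, too few to rely on, so the 5% with the highest scores in each mouse were left out as an alternative.

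Counts were summed per mouse and class with at least 10 cells in each mouse, and tested with edgeR 4.0.16 (quasi-likelihood, TMM, default filter, prior count 2) in R 4.3.3, with only the 2 compared groups in the fit. Adjusted p-values are by Benjamini-Hochberg over all genes tested. Depth differed between groups, with 2563064 to 3486742 UMIs per Phase I ROP mouse, 2567056 to 3369648 per control and 4356305 to 6516478 on the diets. Intervals are at 95%, exact for Poisson counts and Wilson's for shares of cells with a UMI, and cover counting error only. Shares of cells were thinned to 500 UMIs per cell. Tested on simulated data, the fit of Phase I ROP in amacrine cells found 91.8% of changes of 4-fold and 54.3% of 2-fold among 10868 genes. Members, the genes most like each and, in each list and class, up to 3 called genes of largest change per direction are named. Coordinates are from GENCODE M21 and promoters from RefSeq (GRCm38.p6). Alternatives were a replicate block, each mouse left out, DESeq2 1.42.0, scaling by median of ratios, no count filter, 1 fit of 4 groups, cells with more than 500 genes, thinned sums, classes by marker score, removal of cells with high Scrublet scores, the members allowed among the variable genes and, added after the data were seen, cells with at most 1 UMI of 12 Müller markers, single amacrine clusters and the endothelial share without control replicate 3.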

Additional observations from a re-analysis of the deposited data

Results flagged for a closer look

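Differences between classes in the size of a change were tested with an interaction term in edgeR, in 39 tests for Phase I ROP, of which 5 passed an adjusted p of 0.05, and 56 for the diets, of which 1 passed. Among all genes the same tests called 10.3% for rods minus amacrine cells, 4.97% for rods minus Müller glia, 5.96% for rods minus bipolar cells and, between the diets, 0.0263% for cones minus bipolar cells. For Phase I ROP minus control, the log2 change of Kdr in rods minus that in amacrine cells was -2.53 (adjusted p = 0.00384) and that in rods minus Müller glia was -1.77 (adjusted p = 0.0204). For Nrp2 the change in rods minus amacrine cells was -3.14 (adjusted p = 0.00336) and in rods minus bipolar cells -2.71 (adjusted p = 0.0299). For Vegfa the change in rods minus amacrine cells was -1.65 (adjusted p = 0.0416). Kdr and Nrp2 rested on 17 to 22 UMIs in rods in each group and had not passed the count filter there, so these 4 values carry no call, and the Vegfa difference was the only one of the 5 for which the gene had passed it within both classes.

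For the ω-6 minus ω-3 diet, the change of Kdr in cones minus that in bipolar cells was 3.65 (adjusted p = 0.0285). The bipolar value turned on 1 mouse on the ω-3 diet, and without it the difference was 3.14 (adjusted p = 1.00). The call was also lost without any other of the 5 mice (3.39 to 3.98). In an exact two-sided permutation test of the within-mouse differences, which counts absolute values at least as large, p was 0.1 for each of the 6, the smallest value that these numbers of mice allow.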

How the results depend on the processing

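Higher Kdr in amacrine cells passed the threshold in 18 of 18 alternatives (log2 fold change 1.2 to 2.07), Nrp2 there in 17 of 17 (1.32 to 2.00) and Vegfa in 17 of 18 (0.90 to 1.55, missed in the cluster with Prdm13 and Ebf3 leading). Vegfa over all cells passed in 15 of 15, Vegfa in bipolar cells in 14 of 16, Nrp2 over all cells in 8 of 15, Kdr in Müller glia in 12 of 15 (0.68 to 0.90) and Nrp2 in bipolar cells in 9 of 15. Vegfa in Müller glia, below the threshold as reported, passed in 4 of 15 alternatives, and Kdr over all cells in 7 of 15. The cause of the shifts given below was not tested. Depth limits every statement on endothelial cells, cones, Flt4 and Pgf. Phase I ROP in cones with at most 1 Müller UMI was not run, as under 10 cells were left in a mouse.

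Same-numbered mice deviated from their group means with correlations of -0.017, 0.10 and 0.15 (Phase I ROP and control) and 0.075 and 0.26 (diets). Mice of unlike number gave -0.19 to 0.095 and -0.26 to 0.20. With so few mice, these values do not settle whether replicate numbers pair the mice. With the replicate block, the members called in Müller glia went from 1 to 2, and diet genes called were 34 in rods (2 without the block), 75 over all cells, 85 in amacrine cells, 21 in cones, 9 in bipolar cells and 5 in Müller glia (0 each without it), with 1 gene of the pathway lists over all cells.

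Genes called between Phase I ROP and control changed as follows. In rods 3460 became 5263 in 1 fit of 4 groups, 1630 by marker score and 2153 on thinned sums. In cones 600 became 395 with DESeq2, 963 in 1 fit of 4 groups, 1145 by marker score, 171 on thinned sums and 256 to 618 with a mouse left out. In amacrine cells 4399 became 2918 with at most 1 Müller UMI. In Müller glia 523 became 309 with DESeq2 and 249 to 440 with a mouse left out. Between the diets, DESeq2 called 45 genes in rods, 23 over all cells, 14 in amacrine cells, 3 in bipolar cells, 3 in Müller glia and 2 in cones. Without a filter there were 155 in rods, 105 in amacrine cells, 13 in Müller glia and 12 in bipolar cells. In rods there were 6 in 1 fit of 4 groups and 0 with more than 500 genes or by marker score, and in bipolar cells 3 with at most 1 Müller UMI. With a mouse left out the diet counts ran from 0 to 26 in rods, 0 to 7 in Müller glia, 0 to 6 in amacrine cells, 0 to 5 in cones, 0 to 3 in bipolar cells and 0 to 2 over all cells.

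Members called in Phase I ROP were 1 in cones by marker score (0 as reported). In bipolar cells (2) they were 1 with DESeq2, with more than 500 genes and by marker score, 4 without a filter and 0 to 2 with a mouse left out. In amacrine cells (3) they were 5 without a filter and 3 to 5 with a mouse left out. In Müller glia (1) they were 2 with more than 500 genes and by marker score, and 0 to 1 with a mouse left out. Over all cells (2) there was 1 on thinned sums and 1 to 2 with a mouse left out. Between the diets 1 member was called in bipolar cells without a filter, and 0 to 1 with a mouse left out. Pathway genes called in Phase I ROP were 8 in rods by marker score (24 as reported). In cones (5) they were 3 with DESeq2, 9 in 1 fit of 4 groups and by marker score, 0 on thinned sums and 2 to 6 with a mouse left out. In bipolar cells (28) they were 18 with DESeq2 and 16 to 25 with a mouse left out, and in amacrine cells (31) 19 with DESeq2, 14 with at most 1 Müller UMI and 20 to 27 with a mouse left out. In Müller glia (2) there was 1 with DESeq2, in 1 fit of 4 groups and with more than 500 genes, 4 by marker score and 1 with any mouse left out.

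Only values below the threshold turned their sign. In Phase I ROP, Vegfa in rods ran from -0.45 to 0.063 with a mouse left out, Vegfb in bipolar cells from -0.018 to 0.16, Vegfb in amacrine cells from -0.45 to 0.18, Vegfb in Müller glia from -0.010 to 0.26, Flt1 in Müller glia from -0.086 to 0.35, Flt1 over all cells from -0.47 to 0.12 and Nrp1 over all cells from -0.053 to 1.08. Vegfb in bipolar cells was also -0.032 with more than 500 genes, -0.12 by marker score and -0.056 on thinned sums. The difference in endothelial share between Phase I ROP and control was -0.321 to -0.740 with a mouse left out. Between the diets, Kdr in cones was -0.46 by marker score, and the difference in endothelial share ran from -0.130 (without ω-6 replicate 2) to 0.224. Of the 5 class differences called in Phase I ROP, 1 to 5 were called with a mouse left out, and of the 1 between the diets 0 to 2. An exact permutation test could call none of them, since 0.1 is the smallest p that these numbers of mice allow.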
